A study of Mus musculus with 40 samples.

Results

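The Ms4a family (membrane-spanning 4-domains, subfamily A) was followed in the cortex of *Trem2* H157Y knock-in mice through its 7 members that myeloid cells express, *Ms4a4a*, *Ms4a4b*, *Ms4a4c*, *Ms4a6b*, *Ms4a6c*, *Ms4a6d* and *Ms4a7*. They were chosen by gene name from the 43346 genes of the count table, and all 7 were among the 21253 genes that reached 10 counts in 4 or more libraries and were tested. RNA sequencing covered 40 mice in 4 groups of 10, each with 5 females and 5 males. The amyloid cohort was hemizygous for the 5xFAD transgenes (driven by the neuronal *Thy1* promoter) and was 8.5 months old, and the non-amyloid cohort had no such transgenes and was 6 months old, so that transgene and age cannot be told apart between cohorts. Within each cohort, mice with 2 normal *Trem2* alleles (WT) were compared to mice homozygous for *Trem2* H157Y (Hom), a germline change made by CRISPR/Cas9.

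MS4A proteins cross the membrane with 4 helices and act beside receptors and ion channels of immune cells. In humans the MS4A locus holds common variants linked to the risk of Alzheimer's disease and to the amount of soluble TREM2 in cerebrospinal fluid, and its myeloid genes are expressed by microglia and macrophages. Mouse *Ms4a7* is in common use as a marker of border-associated macrophages, the macrophages of meninges and perivascular spaces, *Ms4a4b* is known from T cells, and *Ms4a6b*, *Ms4a6c* and *Ms4a6d* are close mouse relatives of human *MS4A6A*.

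The members lay side by side on mouse chromosome 19 within 283.8 kb, chr19:11321039-11604849 in mm10, inside a run of 19 Ms4a genes that spanned 678.6 kb. All 7 are annotated as protein coding. *Ms4a4a* (ENSMUSG00000101389, chr19:11375523-11392790), *Ms4a4c* (ENSMUSG00000024675, chr19:11404770-11427246), *Ms4a4b* (ENSMUSG00000056290, chr19:11443553-11463549), *Ms4a6c* (ENSMUSG00000079419, chr19:11469366-11482192) and *Ms4a6b* (ENSMUSG00000024677, chr19:11516512-11531256) follow each other on the plus strand. *Ms4a7* (ENSMUSG00000024672, chr19:11321039-11336146) and *Ms4a6d* (ENSMUSG00000024679, chr19:11586604-11604849) flank them on the minus strand. Of the 12 other Ms4a genes 2 had enough counts to be tested, *Ms4a14* and *Ms4a15*. *Ms4a5* and *Ms4a10* had 0 counts in all 40 libraries, which allows up to 3 counts in a library. *Ms4a1*, which encodes the B cell antigen CD20, never exceeded 15 counts, and *Ms4a4d*, which lies between *Ms4a6b* and *Ms4a6d*, never exceeded 7. *Ms4a15* had group means between 0.771 and 1.37 CPM, with 0 to 4.99 CPM in single mice, and *Ms4a14* had group means between 0.0882 and 0.155 CPM.

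**Figure D1:**
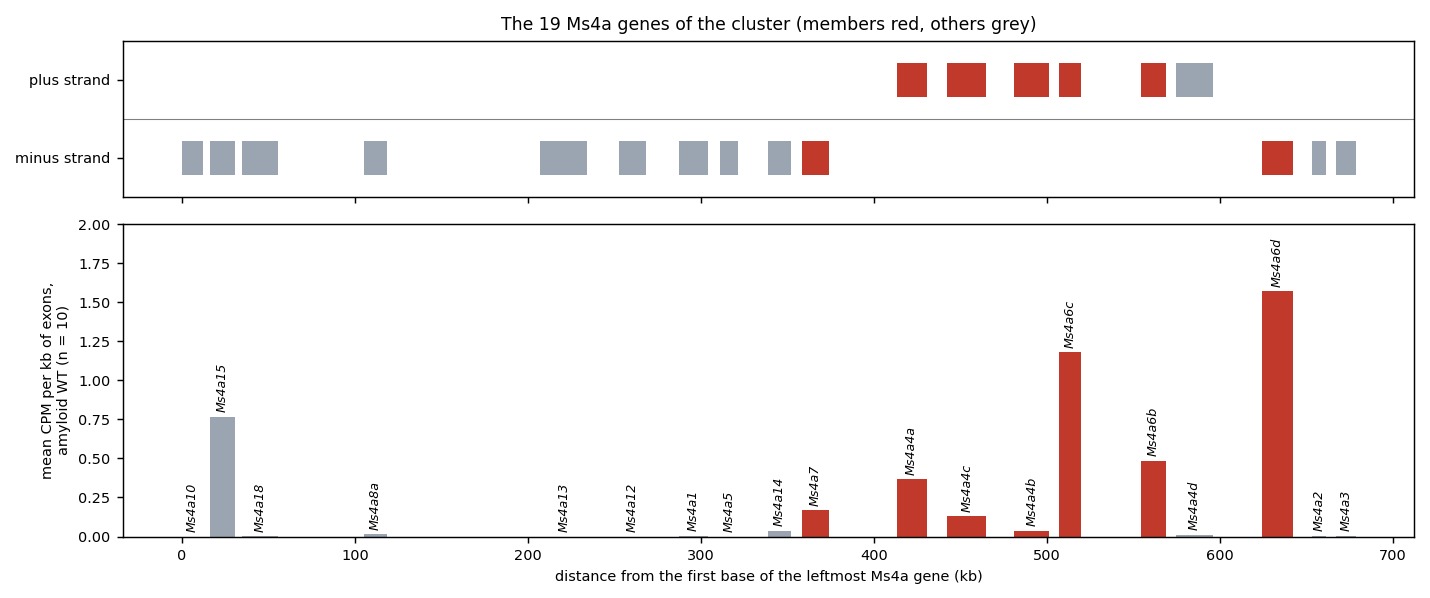
Positions of the 19 Ms4a genes as kb from the leftmost gene (upper panel, by strand) and their mean CPM per kb of exons in amyloid WT mice (lower panel, n = 10). The 7 members are red and the other 12 genes grey, and the tallest bars belong to *Ms4a6d* (1.57) and *Ms4a6c* (1.18).

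The promoters of both pairs of members with the most similar sequence are shown. Between cohorts *Ms4a4b* and *Ms4a4c* both passed the test described below, while of *Ms4a6b* and *Ms4a6c* only *Ms4a6c* did. In WT mice *Ms4a6b* had a log2 fold change of 0.40 (adjusted p = 0.106 by edgeR), and the difference between the members was not tested. RefSeq promoters (GRCm38.p6, the assembly of mm10, 250 bases before to 50 bases after the start) were found for 6 of the 7 members, with 2 starts for *Ms4a7* and none for *Ms4a6d*. The RefSeq starts of *Ms4a6b* and *Ms4a4c* lie inside the gene bodies given above, whose outermost start is upstream. Capitals mark the longest stretch that both promoters of a pair share without a mismatch. The promoters of *Ms4a6b* (chr19:11518309-11518608, plus strand) and *Ms4a6c* (chr19:11469118-11469417, plus strand) shared 48 bases, at -118 to -71 and at -49 to -2 from the respective start, and were 85.3% identical over 225 aligned bases.
*Ms4a6b*: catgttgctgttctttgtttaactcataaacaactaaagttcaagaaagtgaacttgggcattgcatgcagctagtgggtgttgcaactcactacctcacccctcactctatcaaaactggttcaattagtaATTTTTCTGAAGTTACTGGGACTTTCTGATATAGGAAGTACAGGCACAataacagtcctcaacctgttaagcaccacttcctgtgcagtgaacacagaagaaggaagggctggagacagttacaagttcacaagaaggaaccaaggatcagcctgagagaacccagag
*Ms4a6c*: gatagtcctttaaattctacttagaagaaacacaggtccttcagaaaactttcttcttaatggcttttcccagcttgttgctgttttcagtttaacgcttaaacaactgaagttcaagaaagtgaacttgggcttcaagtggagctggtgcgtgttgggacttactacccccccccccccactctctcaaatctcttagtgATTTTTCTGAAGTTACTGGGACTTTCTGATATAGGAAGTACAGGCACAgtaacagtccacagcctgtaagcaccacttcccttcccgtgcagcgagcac
Those of *Ms4a4b* (chr19:11443308-11443607, plus strand) and *Ms4a4c* (chr19:11407411-11407710, plus strand) shared 20 bases and were 81.9% identical over 281 aligned bases.
*Ms4a4b*: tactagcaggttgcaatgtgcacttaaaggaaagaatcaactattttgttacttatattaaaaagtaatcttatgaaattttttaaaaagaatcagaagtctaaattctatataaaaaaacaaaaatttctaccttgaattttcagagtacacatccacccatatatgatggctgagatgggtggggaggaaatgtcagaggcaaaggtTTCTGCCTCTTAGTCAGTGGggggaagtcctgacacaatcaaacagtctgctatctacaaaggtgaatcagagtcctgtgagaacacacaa
*Ms4a4c*: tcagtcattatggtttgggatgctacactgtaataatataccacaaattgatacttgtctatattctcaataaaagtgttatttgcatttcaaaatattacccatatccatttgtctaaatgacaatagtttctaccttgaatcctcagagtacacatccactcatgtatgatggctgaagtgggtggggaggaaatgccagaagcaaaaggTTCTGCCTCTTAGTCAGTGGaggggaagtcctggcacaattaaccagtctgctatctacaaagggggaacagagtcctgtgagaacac
All other pairs of members were between 59.8% and 66.8% identical, and none shared more than 9 bases in a row.

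The 48 shared bases of *Ms4a6b* and *Ms4a6c* hold AGGAAGT, the core of the sites that PU.1 and other ETS factors bind. Searched on both strands, AGGAAGT began at -86 in *Ms4a6b* and at -17 in *Ms4a6c*, and *Ms4a6b* held it a second time on the other strand, at -43. Of 32851 mouse promoters of this length, 9.35% held AGGAAGT. GAAANNGAA, the core of the interferon-stimulated response element, was found as GAAAGTGAA at -206 in *Ms4a6b* and at -133 in *Ms4a6c*, on the other strand at -71 from one start of *Ms4a7* and as GAAAAGGAA at -148 from its other start, beside 8.56% of all promoters. CACGTG, the E-box that MITF and TFEB bind, was in none of the members' promoters and in 7.15% of all. A match gives only the presence of the letters.

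The libraries held 41646271 to 105903846 counts on genes, with a median of 77193387. The members took a small part of them, between 3.24 and 13.8 CPM (counts scaled to a library total of 1000000) summed over the 7. One library, amyloid Hom replicate 19, stood apart with the lowest total and with 0.616% of its counts on 475 genes that overlap another gene on the opposite strand, compared to 0.0144% to 0.0191% in the other 39 libraries. This touches *Ms4a6c*, which shares 1088 exonic bases with the antisense gene *BE692007*. In replicate 19 *Ms4a6c* had 98 counts and *BE692007* had 55, or 1.29 CPM, while no other library had more than 0.217 CPM of *BE692007*. Choroid plexus genes, summed, ranged from 7.10 to 668 CPM between libraries, with high libraries in each group but not evenly. The group means were 31.6 CPM in non-amyloid WT, 82.1 in non-amyloid Hom, 90.2 in amyloid WT and 224 in amyloid Hom mice. All 4 genes had estimates above 0 in Hom against WT mice of the amyloid cohort (median 0.82), and none passed. The part of choroid plexus in the members' levels was not tested. Of the 100-base windows in member transcripts only *Ms4a4b* (0.473%) and *Ms4a4c* (1.66%) shared any with another Ms4a gene, each most often with the other. Of the 50-base windows *Ms4a4c* shared 8.19%, *Ms4a6c* 5.85%, *Ms4a6b* 3.44%, *Ms4a6d* 2.31% and *Ms4a4b* 2.24% with another Ms4a gene. The reads were 100 bases long, and how far counts of these genes were mixed was not measured. The paper excluded an amyloid Hom female for a low share of reads on genes and for its strand check, and replicate 19 is an amyloid Hom female, but the labels do not tie that exclusion to a library. Replicate 19 was kept, and was left out in turn from the tests, the ratios to microglial genes and the correlations.

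*Trem2*, the edited gene, was measured first. A gene count does not read the changed codon, so it does not check the genotype. *Trem2* had 10.7 ± 2.13 CPM in non-amyloid WT and 10.4 ± 1.59 CPM in non-amyloid Hom mice, and 62.2 ± 24.4 CPM in amyloid WT and 33.9 ± 10.3 CPM in amyloid Hom mice (SD, n = 10 each). In the amyloid cohort the log2 fold change of Hom against WT was -0.88 (SE 0.21, adjusted p = 0.0763 by edgeR's quasi-likelihood test), and with sex as a covariate it was -0.86 (adjusted p = 0.00923). *Trem2* thus passed the threshold of an adjusted p under 0.05 with an absolute log2 fold change over 0.25 in the second fit and not in the first. In the non-amyloid cohort the log2 fold change was -0.04 (95% confidence interval -0.25 to 0.17).

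Per kb of exons, *Ms4a6d* was the most abundant member in every group and *Ms4a4b* the least abundant. In amyloid WT mice *Ms4a6d* had 1.57 ± 0.382 and *Ms4a6c* 1.18 ± 0.560 CPM per kb, which overlap within their SDs. *Ms4a6b* followed with 0.486 ± 0.131 and *Ms4a4a* with 0.365 ± 0.221, again within their SDs. *Ms4a7* had 0.167 ± 0.0518, *Ms4a4c* 0.130 ± 0.112 and *Ms4a4b* 0.0349 ± 0.0241 CPM per kb. In non-amyloid WT mice *Ms4a6d* led with 0.808 ± 0.190 CPM per kb, and *Ms4a6c* (0.424 ± 0.0805), *Ms4a6b* (0.368 ± 0.0911) and *Ms4a4a* (0.329 ± 0.105) did not differ beyond their SDs. All levels between genes depend on the annotated exon length, which for *Ms4a4b* (5274 bases) was the longest of the members and for *Ms4a4a* (836 bases) the shortest.

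The first comparison asked how the members differ between the cohorts in WT mice. Of the 7 members 4 rose in amyloid WT mice, *Ms4a6c*, *Ms4a6d*, *Ms4a4b* and *Ms4a4c*, and none fell, while 7.95% of all tested genes passed the same test. The median log2 fold change of the members was 0.96 and that of all tested genes was 0.00. *Ms4a6c* in non-amyloid WT mice ranged from 0.661 to 1.16 CPM with a median of 0.824. In amyloid WT mice it ranged from 1.39 to 4.79 CPM with a median of 1.95. The groups did not overlap, and the log2 fold change was 1.47 (SE 0.19, adjusted p = 6.33e-08). *Ms4a6d* ranged from 0.957 to 2.06 CPM (median 1.32) in non-amyloid WT and from 1.88 to 3.81 CPM (median 2.59) in amyloid WT mice. All but 1 of the amyloid mice were above every non-amyloid mouse, with a log2 fold change of 0.96 (SE 0.15, adjusted p = 8.06e-06).

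*Ms4a6b*, whose promoter resembles that of *Ms4a6c*, did not pass. It ranged from 0.985 to 2.24 CPM (median 1.60) in non-amyloid WT and from 1.42 to 3.43 CPM (median 2.05) in amyloid WT mice, with a log2 fold change of 0.40 (SE 0.16, adjusted p = 0.106). Only 3 amyloid mice were above all non-amyloid mice. *Ms4a7* had a log2 fold change of 0.28 (95% confidence interval -0.11 to 0.66) and *Ms4a4a* of 0.15 (-0.45 to 0.76). Their groups overlapped. *Ms4a7* had 0.406 to 0.957 CPM in non-amyloid WT and 0.396 to 1.13 CPM in amyloid WT mice. Of the amyloid mice 3 were above and 1 below every non-amyloid mouse. *Ms4a4a* had 0.141 to 0.448 and 0.0952 to 0.693 CPM, with 1 amyloid mouse above and 3 below every non-amyloid mouse. The differences between members in their response to the cohort were not tested.

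*Ms4a4b* and *Ms4a4c* rose from very low counts. *Ms4a4c* had 0 to 9 counts per library in non-amyloid WT mice (0 to 0.139 CPM, median 0.0390) and 7 to 52 in amyloid WT mice (0.0764 to 0.707 CPM, median 0.139), with a log2 fold change of 2.096 (SE 0.49, adjusted p = 0.00255). *Ms4a4b* had 1 to 15 counts (0.0111 to 0.232 CPM, median 0.0490) and 4 to 38 counts (0.0511 to 0.517 CPM, median 0.160), with a log2 fold change of 1.41 (SE 0.41, adjusted p = 0.0199). Both ranges overlapped between cohorts. The highest value of both genes was in the same mouse, amyloid WT replicate 32, and without it the adjusted p of *Ms4a4b* was 0.0821 (log2 fold change 1.08). That mouse also had 386 CPM summed over 12 interferon-stimulated genes, compared to 89.1 to 219 CPM in the other 9 amyloid WT mice, and the highest *Cd8a* (0.462 CPM) and *Cd3g* (0.326 CPM) of its group. The part of these cells or genes in the values of *Ms4a4b* and *Ms4a4c* was not tested. Without a filter on low counts the adjusted p of *Ms4a4b* was 0.0505.

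The same comparison in Hom mice used separate animals. Here 3 of the 7 members rose, *Ms4a4b*, *Ms4a4c* and *Ms4a6c*, and none fell, beside 6.56% of all tested genes. The median of the members was 0.55 and that of all tested genes 0.03. *Ms4a6c* ranged from 0.727 to 1.27 CPM (median 0.912) in non-amyloid Hom and from 1.14 to 2.30 CPM (median 1.69) in amyloid Hom mice, and 7 amyloid mice were above all non-amyloid ones. Its log2 fold change was 0.81 (SE 0.18, adjusted p = 0.003). *Ms4a4b* had 0 to 5 counts in non-amyloid Hom and 5 to 16 in amyloid Hom mice, and in CPM (0 to 0.0607 and 0.0779 to 0.217) these groups did not overlap (log2 fold change 2.37, SE 0.47, adjusted p = 0.000529). *Ms4a4c* had 0 to 7 and 1 to 17 counts (log2 fold change 1.87, SE 0.53, adjusted p = 0.0199). Without replicate 19 its adjusted p was 0.0669.

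*Ms4a6d* missed the threshold in Hom mice. It ranged from 0.798 to 1.97 CPM (median 1.20) in non-amyloid Hom and from 1.34 to 2.28 CPM (median 1.72) in amyloid Hom mice, with a log2 fold change of 0.47 (SE 0.15, adjusted p = 0.054). It passed in 3 of 7 alternatives, in DESeq2 (adjusted p = 0.0429), in limma-voom (0.0029) and with sex as a covariate (0.0488). It also passed when any of 7 single libraries was left out, amyloid Hom replicates 10 and 25, non-amyloid Hom replicates 11 and 23, amyloid WT replicate 12 and non-amyloid WT replicates 18 and 38, with adjusted p from 0.0192 to 0.0495. With any other of the 40 libraries left out it did not pass (adjusted p up to 0.114). *Ms4a7* had a log2 fold change of 0.55 (SE 0.20, adjusted p = 0.0804), with 0.287 to 0.694 CPM in non-amyloid Hom and 0.333 to 1.15 CPM in amyloid Hom mice, and it passed without non-amyloid Hom replicate 11 (adjusted p = 0.0469) or amyloid Hom replicate 25 (0.0473) or 39 (0.0383). With any other library left out *Ms4a7* did not pass (adjusted p up to 0.202). *Ms4a6b* (0.16, SE 0.16) and *Ms4a4a* (0.17, SE 0.31) did not pass. That a member passed in WT and not in Hom mice does not show that the groups differ, which the interaction below tests.

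**Figure D2:**
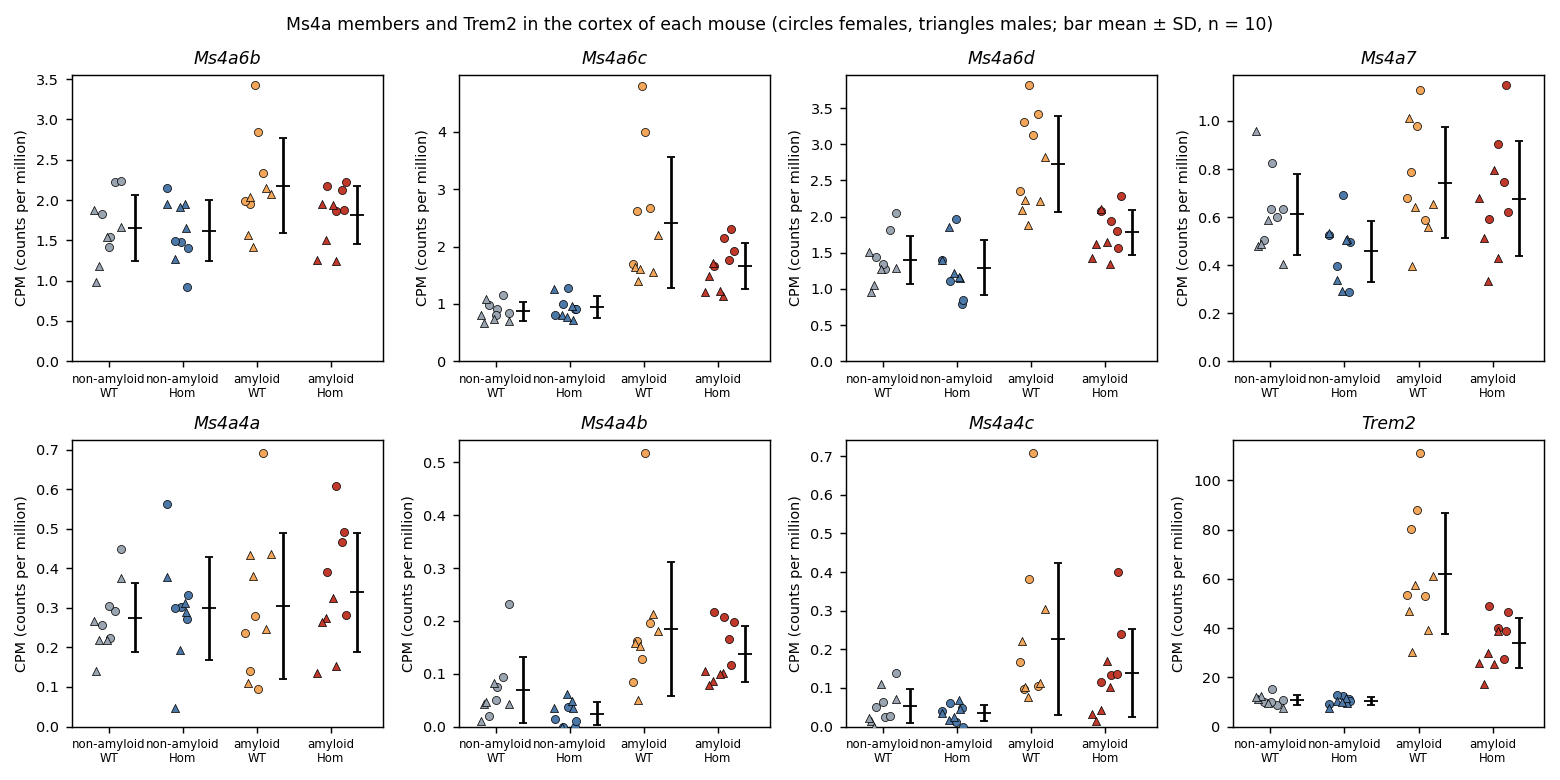
CPM of each member and of *Trem2* in every mouse by group, on axes that start at 0. Circles are females, triangles males, and the bars give the mean ± SD of 10 mice. *Ms4a6c* in amyloid WT mice lies above all non-amyloid WT mice, and the amyloid WT point highest in *Ms4a4b* and *Ms4a4c* is replicate 32 in both.

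The second comparison asked what *Trem2* H157Y does to the members within the amyloid cohort. None of the 7 members passed in edgeR's test without a covariate, in which 0.0753% of all tested genes (16) passed. At an unadjusted p under 0.05 there were 2 of 7, *Ms4a6d* and *Ms4a6c*, both lower in Hom mice, beside 9.67% of all tested genes. The median log2 fold change of the members was -0.41 and that of all tested genes 0.00, and 6 of the 7 estimates were below 0. The median is the value of *Ms4a4b*, which moved with 1 library, as given below. The amyloid WT mice of this comparison are those of the first one, so that the values of both share them.

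*Ms4a6d* had the lowest p of the members. Its range was 1.88 to 3.81 CPM (median 2.59) in amyloid WT and 1.34 to 2.28 CPM (median 1.72) in amyloid Hom mice. The groups overlapped, with 6 Hom mice below every WT mouse and 6 WT mice above every Hom mouse. The log2 fold change was -0.61 (SE 0.14, 95% confidence interval -0.88 to -0.34), with an adjusted p of 0.0633 by edgeR. With sex as a covariate it was -0.60 (SE 0.12) and passed (adjusted p = 0.0103), in a fit in which 1.18% of all tested genes (251) passed. It also passed in DESeq2 (adjusted p = 0.004) and in one fit of all 40 libraries (0.0148), and not in limma-voom (-0.46, adjusted p = 0.181). With sex as a covariate counted, *Ms4a6d* passed in 3 of 8 alternatives. Without a covariate it passed in 3 of 20 fits with 1 library left out. The library was amyloid Hom replicate 3 (adjusted p = 0.0463), amyloid WT replicate 13 (0.0322) or amyloid WT replicate 22 (0.0402). In the other fits its adjusted p was up to 0.148. With sex as a covariate *Ms4a6d* passed with any 1 of the 20 libraries left out (adjusted p 0.00478 to 0.0304).

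*Ms4a6c* ranged from 1.39 to 4.79 CPM (median 1.95) in amyloid WT and from 1.14 to 2.30 CPM (median 1.69) in amyloid Hom mice, with a log2 fold change of -0.55 (SE 0.22, adjusted p = 0.369). The 4 highest WT mice were above every Hom mouse and the 3 lowest Hom mice were below every WT mouse. Without replicate 19, the library with reads on opposite-strand genes, the log2 fold change was -0.61 (adjusted p = 0.362). *Ms4a4c* had a log2 fold change of -0.75 (SE 0.48), which was -1.04 without amyloid Hom replicate 19 (adjusted p = 0.566) and -0.37 without amyloid WT replicate 32 (adjusted p = 0.777). *Ms4a4b* had -0.41 (SE 0.33), which was -0.09 without amyloid WT replicate 32 (adjusted p = 0.920) and -0.05 in limma-voom. *Ms4a6b* had -0.26 (SE 0.15). *Ms4a7* (-0.14, 95% confidence interval -0.55 to 0.28) and *Ms4a4a* (0.14, -0.51 to 0.80) were nearest to 0, and their intervals include changes of the size estimated for *Ms4a6c* or *Ms4a6b*. In bulk cortex, fewer cells of a type and less RNA per cell cannot be told apart.

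In the non-amyloid cohort, H157Y was compared without the amyloid transgenes. No member passed, and 0.0329% of all tested genes (7) did. At an unadjusted p under 0.05 there were 2 of 7, *Ms4a4b* and *Ms4a7*, both lower in Hom mice, beside 4.49% of all tested genes. *Ms4a7* ranged from 0.406 to 0.957 CPM (median 0.593) in non-amyloid WT and from 0.287 to 0.694 CPM (median 0.501) in non-amyloid Hom mice, with a log2 fold change of -0.42 (SE 0.18, adjusted p = 0.962). *Ms4a4b* had a log2 fold change of -1.37 (SE 0.55, adjusted p = 0.962) on 1 to 15 counts in WT and 0 to 5 counts in Hom mice, and -0.97 at its smallest, with 1 library left out. *Ms4a6d* (-0.12, 95% confidence interval -0.44 to 0.20), *Ms4a6c* (0.12, -0.14 to 0.38) and *Ms4a6b* (-0.03, -0.33 to 0.27) had narrower intervals. *Ms4a4a* (0.13, SE 0.26) and *Ms4a4c* (-0.53, SE 0.51) were measured less precisely.

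The difference of the genotype effect between cohorts was tested as an interaction over all 40 libraries. No member and 0% of all tested genes passed in edgeR. At an unadjusted p under 0.05 there were 2 of 7 members, *Ms4a6c* (-0.66, SE 0.26, p = 0.0141, adjusted p = 0.382) and *Ms4a6d* (-0.49, SE 0.22, p = 0.0276, adjusted p = 0.448), beside 10.3% of all tested genes. DESeq2 also passed no member, with 38 genes in all. *Ms4a4b* (0.96, SE 0.61), *Ms4a7* (0.28, SE 0.28), *Ms4a4a* (0.01, SE 0.44), *Ms4a4c* (-0.23, SE 0.78) and *Ms4a6b* (-0.24, SE 0.22) had intervals that include 0.

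**Figure D3:**
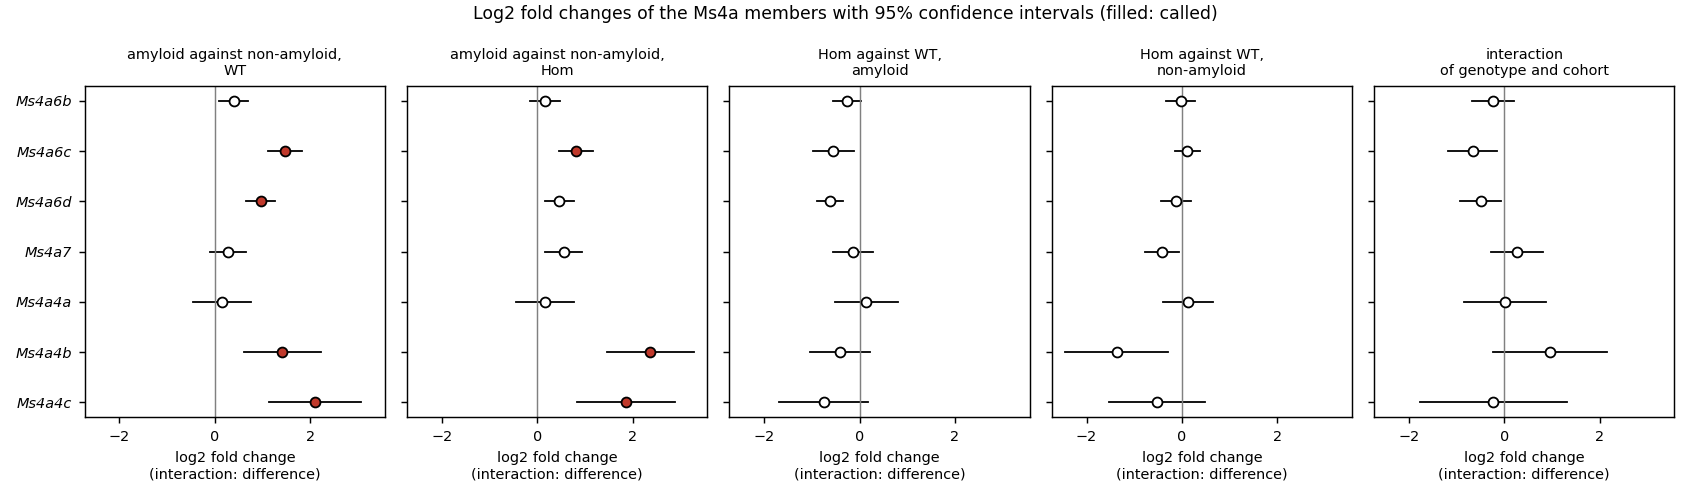
Log2 fold changes of the 7 members in 5 comparisons, with 95% confidence intervals, filled where the adjusted p was under 0.05 and the absolute log2 fold change over 0.25. The last panel is the difference of the Hom against WT effect between cohorts. Filled points occur only in the 2 panels of amyloid against non-amyloid, 4 in WT and 3 in Hom mice.

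Sex was balanced within the groups, and no member passed between males and females of amyloid WT or amyloid Hom mice. The estimates of males against females were below 0 for 6 of 7 members in amyloid WT and 7 of 7 in amyloid Hom mice. Their medians were -0.51 and -0.53, beside -0.015 and -0.004 for all tested genes. In amyloid WT mice *Ms4a6c* had 3.15 ± 1.23 CPM in females (1.70 to 4.79) and 1.68 ± 0.306 CPM in males (1.39 to 2.20, SD, n = 5 each). In amyloid Hom mice it had 1.96 ± 0.264 CPM in females (1.66 to 2.30) and 1.35 ± 0.238 CPM in males (1.14 to 1.71). The ranges of females and males overlapped in both groups, and the log2 difference of males against females in amyloid WT mice was -0.91 (SE 0.22, adjusted p = 0.181) and in amyloid Hom mice -0.53 (SE 0.22, adjusted p = 0.553). *Trem2* had -0.71 (adjusted p = 0.377) and -0.55 (adjusted p = 0.559) in the same comparisons, and 14 homeostatic microglial genes summed to 1067 to 1644 CPM in amyloid WT females and 754 to 1201 CPM in amyloid WT males, whose part in the difference was not tested. *Ms4a6d* had 3.20 ± 0.539 CPM in amyloid WT females and 2.25 ± 0.352 CPM in amyloid WT males, and 1.94 ± 0.271 and 1.63 ± 0.293 CPM in amyloid Hom females and males.

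Whether the effect of H157Y differed between the sexes was tested within the amyloid cohort. No member passed in this interaction, 0 of 7 had an unadjusted p under 0.05, 0% of all tested genes passed and 5.29% had an unadjusted p under 0.05 in edgeR, and DESeq2 passed 0 genes. For *Ms4a6d* the log2 fold change of Hom against WT was -0.73 (SE 0.16, adjusted p = 0.0566) in females and -0.47 (SE 0.16, adjusted p = 0.952) in males, with an interaction of 0.26 (95% confidence interval -0.19 to 0.71). For *Ms4a6c* it was -0.69 (SE 0.22) in females and -0.31 (SE 0.22) in males, with an interaction of 0.37 (-0.24 to 0.99). *Ms4a4a* had the interaction farthest from 0 (-1.14, SE 0.63, p = 0.0858, adjusted p = 0.817), from 0.64 in females and -0.50 in males.

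Since the members are known as genes of myeloid cells, they were also set beside 14 homeostatic microglial genes. The summed level of these genes had a median of 496 CPM in non-amyloid WT, 468 in non-amyloid Hom, 1134 in amyloid WT and 783 in amyloid Hom mice, and 14 of 14 rose in amyloid WT against non-amyloid WT mice. Between Hom and WT mice of the amyloid cohort 0 of 14 passed, with 14 of 14 estimates below 0, 12 at an unadjusted p under 0.05 and a median of -0.51. Per 1000 CPM of these genes, *Ms4a6c* stood at 1.81 ± 0.269 in non-amyloid WT, 1.99 ± 0.328 in non-amyloid Hom, 2.001 ± 0.549 in amyloid WT and 2.07 ± 0.446 in amyloid Hom mice. These means lay within an SD of each other. *Ms4a6d* had 2.91 ± 0.572, 2.74 ± 0.781, 2.35 ± 0.355 and 2.23 ± 0.299 in the same order. The amyloid Hom and amyloid WT means of *Ms4a6d* lay within an SD of each other on this scale. In CPM they were 1.78 ± 0.311 and 2.72 ± 0.663, which did not pass without a covariate (adjusted p = 0.0633 by edgeR). Without replicate 19 the amyloid Hom means were 1.98 ± 0.344 for *Ms4a6c* and 2.26 ± 0.306 for *Ms4a6d* (n = 9).

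The remaining well-measured members stood lower against microglial genes in amyloid WT mice. *Ms4a6b* had 3.43 ± 0.740 per 1000 CPM in non-amyloid WT and 1.89 ± 0.407 in amyloid WT mice, and *Ms4a7* had 1.27 ± 0.292 and 0.642 ± 0.182. In amyloid Hom mice *Ms4a6b* had 2.29 ± 0.5004 and *Ms4a7* 0.863 ± 0.329, and without replicate 19 they had 2.28 ± 0.529 and 0.795 ± 0.265. *Trem2* went the other way, from 22.3 ± 3.90 in non-amyloid WT to 51.9 ± 9.71 in amyloid WT and 41.4 ± 6.96 in amyloid Hom mice. These ratios are descriptions without a test, since the denominator moved with the cohort and its genes need not keep the same level per cell.

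**Figure D4:**
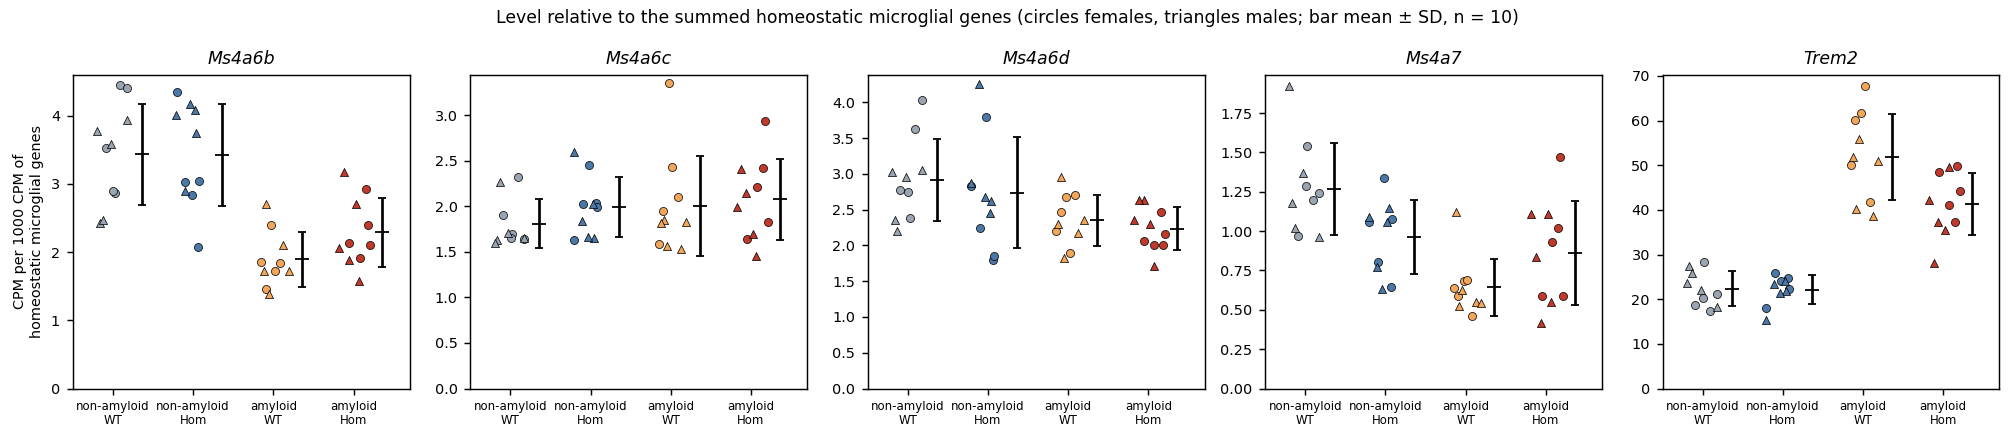
CPM of *Ms4a6b*, *Ms4a6c*, *Ms4a6d*, *Ms4a7* and *Trem2* per 1000 CPM summed over 14 homeostatic microglial genes, for every mouse (circles females, triangles males, bars mean ± SD, n = 10). *Ms4a6c* keeps group means between 1.81 and 2.07, *Ms4a6b* goes from 3.43 in non-amyloid WT to 1.89 in amyloid WT mice, and *Trem2* from 22.3 to 51.9.

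The other genes around the members moved as follows. *Tmem176a* and *Tmem176b*, which encode related 4-helix membrane proteins, both rose in amyloid WT against non-amyloid WT mice (0.89, SE 0.10, adjusted p = 4.61e-09, and 0.83, SE 0.09, adjusted p = 1.7e-09), and neither passed between Hom and WT mice of the amyloid cohort (-0.40, adjusted p = 0.118, and -0.34, adjusted p = 0.174). With sex as a covariate *Tmem176a* passed there (-0.39, adjusted p = 0.0458). A list of 14 genes around TREM2 held *Trem2*, its signalling genes, *Adam10* and *Adam17*, whose products cleave TREM2, and *Cd33*. Of these 14 genes 13 rose in amyloid WT mice. Between Hom and WT mice of the amyloid cohort 0 passed, 12 had an unadjusted p under 0.05, all below 0, and the median was -0.51. *Tyrobp*, the adaptor that signals for TREM2, had log2 fold changes of 2.77 (adjusted p = 3.11e-16) and -0.90 (adjusted p = 0.0599) in the 2 comparisons. *Inpp5d*, the phosphatase SHIP1, had 1.04 (adjusted p = 1.81e-12) and -0.49 (adjusted p = 0.0554).

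Of 8 myeloid transcription factors 5 rose in amyloid WT mice and 0 passed between Hom and WT mice of the amyloid cohort, where 5 had an unadjusted p under 0.05 and the median was -0.36. *Irf8*, a factor of macrophages and interferon responses, had log2 fold changes of 1.77 (adjusted p = 8.56e-14) and -0.75 (adjusted p = 0.0554). *Spi1*, which encodes PU.1, had 1.37 (adjusted p = 1.97e-08) and -0.76 (adjusted p = 0.0554). All 12 interferon-stimulated genes rose in amyloid WT mice, with a median of 1.62, and 0 passed between Hom and WT mice, where 11 had an unadjusted p under 0.05, all below 0, with a median of -0.999. Among them *Bst2*, which tethers virus particles, had 2.01 (adjusted p = 6.75e-08) and -1.17 (adjusted p = 0.0787), and *Ifitm3*, which blocks virus entry, had 1.07 (adjusted p = 6.61e-07) and -0.75 (adjusted p = 0.0791). With sex as a covariate *Tyrobp* (adjusted p = 0.0056), *Inpp5d* (0.00371), *Irf8* (0.00904), *Spi1* (0.0149), *Bst2* (0.0299) and *Ifitm3* (0.035) passed between Hom and WT mice. Without the covariate, leaving out amyloid WT replicate 13 alone brought *Irf8* (adjusted p = 0.0188), *Spi1* (0.0234), *Tyrobp* (0.0234), *Inpp5d* (0.0249), *Bst2* (0.025) and *Trem2* (0.025) past the threshold, and *Ms4a6d* with them. Of 16 genes of disease-associated microglia 16 rose in amyloid WT mice, with a median of 2.498, and 1, *Gpnmb*, fell in amyloid Hom against amyloid WT mice (-1.61, SE 0.29, adjusted p = 0.033). In that comparison 16 of 16 estimates were below 0, 16 with an unadjusted p under 0.05, and the median was -0.86.

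Markers of other cells that express Ms4a genes were counted as well. Of 10 genes of border-associated macrophages 2 rose in amyloid WT against non-amyloid WT mice, where their median was 0.28. They were *Folr2*, a folate receptor of tissue macrophages (1.66, SE 0.33, adjusted p = 0.000319), and *Stab1*, a scavenger receptor (0.42, SE 0.12, adjusted p = 0.0183). The summed level of the 10 genes was 20.0 to 30.4 CPM in non-amyloid WT and 25.9 to 46.3 CPM in amyloid WT mice. Of 7 tested markers of T and NK cells 3 rose, the T cell genes *Cd8a* (2.96, adjusted p = 0.000116), *Cd3e* (2.602, adjusted p = 0.0006) and *Cd3g* (1.74, adjusted p = 0.0353), and *Cd4* fell (-0.71, SE 0.19, adjusted p = 0.0097). The 3 genes rose from very low levels, at most 0.0927, 0.0508 and 0.232 CPM in non-amyloid WT mice. Of the 7 estimates 4 were above 0 and 3 below, with a median of 0.125. The median summed level of the 10 listed T and NK cell genes was 22.8 CPM in non-amyloid WT and 14.7 CPM in amyloid WT mice. Of 3 tested B cell markers *Cd22*, a sialic acid receptor that microglia also express, rose (3.52, SE 0.32, adjusted p = 1.47e-11), and of 6 tested markers of monocytes and neutrophils 0 passed. No marker of these 4 kinds passed between Hom and WT mice of either cohort without a covariate. At an unadjusted p under 0.05 in the amyloid cohort there were 4 of 10 border-associated macrophage genes (median of the 10 -0.28) and 1 of 3 B cell markers. All of these were lower in Hom mice, beside 9.67% of all tested genes. The T and NK cell markers had 0 of 7, and those of monocytes and neutrophils 0 of 6. In the non-amyloid cohort only 3 of 6 markers of monocytes and neutrophils did, all lower in Hom mice, beside 4.49%. The lowest p were those of *S100a8* and *S100a9*, which had 4.78 and 8.58 CPM in non-amyloid WT replicate 24. In the other non-amyloid WT mice they had at most 0.189 and 0.345 CPM. The median summed level of the listed monocyte and neutrophil genes was 1.47 CPM in non-amyloid WT and 1.28 CPM in non-amyloid Hom mice. Each listed gene of these 4 kinds had counts in at least 1 library, and their part in the members' levels was not tested.

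The genes most like each member were found over the 40 mice after the mean of each group was removed from log2 CPM, as Pearson's r with 21252 other genes. *Ms4a6b* was most like *Samd9l* (r = 0.811), an interferon-inducible gene, then *Vcam1* (0.709) and *Naalad2* (0.701). *Ms4a6c* was most like *Ncf1* (0.762), a subunit of the phagocyte NADPH oxidase, then *Fyb* (0.754) and *Fcgr2b* (0.752), the inhibitory Fc receptor. *Ms4a6d* was most like *Tlr7* (0.679), a receptor for single-stranded RNA, then *Rab39* (0.672) and *Gen1* (0.662). *Ms4a4a* was most like *Cd163* (0.722), the haemoglobin scavenger receptor of macrophages, then *Metap2* (0.664) and *Ankrd32* (0.654). *Ms4a7* was most like *Oas3* (0.673), *1500015A07Rik* (0.667) and *Rbpms2* (0.666). The low-count *Ms4a4b* was most like *Dennd2c* (0.711), *Gbp5* (0.668) and *Iigp1* (0.652), of which *Gbp5* and *Iigp1* encode interferon-inducible GTPases, and *Ms4a4c* was most like *5430435G22Rik* (0.654), *Bmf* (0.646) and *Cd180* (0.639). Over the 39 mice without replicate 19 the first gene was *Tmem243* for *Ms4a6d* (0.694, with *Tlr7* at 0.678) and *Parp14* for *Ms4a4c* (0.675, with *5430435G22Rik* at 0.658), and the same as above for the other 5 members. The correlations were not repeated without amyloid WT replicate 32. That mouse had the highest *Ms4a4b* and *Ms4a4c* of its group and 386 CPM of interferon-stimulated genes, and its part in these values was not tested.

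Among themselves the members were alike to unequal degrees. *Ms4a6b* and *Ms4a6d* had r = 0.657, which placed *Ms4a6b* 10th among all genes for *Ms4a6d*. *Ms4a6c* and *Ms4a6d* had r = 0.549 and *Ms4a6b* and *Ms4a6c* 0.497, while *Ms4a4a* had no r above 0.387 with another member. *Ms4a6c* was the member most like *Trem2* (0.587), and *Ms4a6b* had 0.101 and *Ms4a4a* -0.184 with it. All points share library and depth, mice of both sexes are mixed, and at the counts of *Ms4a4a*, *Ms4a4b* and *Ms4a4c* counting error lowers r.

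**Figure D5:**
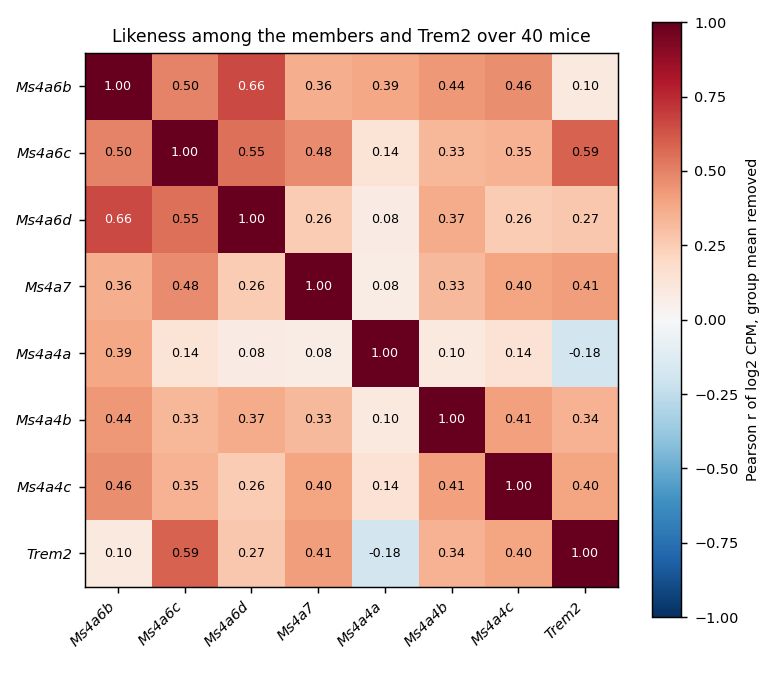
Pearson's r of log2 CPM between each pair of members and *Trem2* over 40 mice, with the mean of each group removed. *Ms4a6b* and *Ms4a6d* form the highest pair of members (0.66), and *Ms4a4a* is near 0 with most others.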

How the data were processed

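Cortical RNA of 40 mice was sequenced as paired reads of 100 bases from poly-A libraries. The deposited values are raw counts of reads per gene, which the authors made against mm10 without normalization. The paper's methods name TopHat within MAP-RSeq, and the submitters' processing notes list STAR 2.5.2b, featureCounts 1.5.1 and edgeR. The strand setting is not given in the sources used here. In the paper 1 female of the amyloid Hom group was excluded after quality control without its library being given, so none was excluded here.

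The filter, test and thresholds were those of the paper's methods, but the libraries were not, since the paper excluded an amyloid Hom female. For Hom against WT in the amyloid cohort the paper reports many more passing genes than the 16 found here. Among those it reports as lower in Hom mice are *Trem2*, *Tyrobp*, *Cx3cr1* and *Tmem119*, which it also measured by qPCR. The reason for this difference was not tested. Genes that reached 10 counts in 4 or more of the 40 libraries were kept, counts were normalized by TMM, and groups were compared with edgeR 4.0.16 (R 4.3.3) by its quasi-likelihood test, within a cohort for Hom against WT (20 libraries) and over all 40 libraries for cohort comparisons and interactions. Adjusted p-values are Benjamini-Hochberg values over the 21253 tested genes. A gene passed when its adjusted p was below 0.05 and its log2 fold change exceeded 0.25 in size. Standard errors were derived from the F statistic. CPM is counts scaled to a TMM-adjusted library total of 1000000, and likeness used a prior count of 2. The alternatives were DESeq2 1.42.0, limma-voom 3.58.1 with sample quality weights, other scalings, no filter, no fold-change threshold, sex as a covariate, one fit of all libraries and each library left out. The functions were tested on simulated data. Any 2 libraries of a group were farther apart than counting error allows, with a chi-square of 12.7 or more for each degree of freedom. *Clec7a*, listed under 2 identifiers, was taken from the one with more counts.

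All 7 members are named, other Ms4a genes that were tested are given with values, lists by counts with up to 4 genes of lowest p, and likeness by the first 3 genes. The members and the lists were chosen with earlier results of these data known. Each library is 1 mouse.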

Additional observations from a re-analysis of the deposited data

Results flagged for a closer look

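A single library stood far from the other 9 of its group in 4 cases, by Dixon's ratio of the gap to the range. With 48 groups of 10 examined, chance alone flags about 1 in 20. *Ms4a4b* in amyloid WT replicate 32 was 0.517 CPM (38 counts), and the next highest mouse of the group had 0.212 CPM. *Ms4a4c* in the same library was 0.707 CPM (52 counts), compared to 0.381 CPM in the next. This library also had the most homeostatic microglial RNA of the 40 (1644 CPM), 383 CPM of choroid plexus genes and 386 CPM of interferon-stimulated genes. *Ms4a4b* in non-amyloid WT replicate 38 was 0.232 CPM (15 counts), with 0.0931 CPM in the next. *Cd3g* had 0.232 CPM in this library and at most 0.0399 CPM in the others of the group. *Cd8a* had 0.0927 CPM and *Cd3e* 0 CPM in it. Its 10 listed T and NK cell genes summed to 18.5 CPM, within the range of 16.9 to 28.4 CPM of the group. *Ms4a15* in non-amyloid Hom replicate 21 was 4.99 CPM (512 counts), with 2.17 CPM in the next, and the choroid plexus genes of this library summed to 21.9 CPM. Whether these other genes have a part in the values was not tested.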

How the results depend on the processing

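Over 271 values of members under another tool, scaling, filter, covariate or fit, 263 kept their direction and their side of the threshold. The number of members that passed between Hom and WT mice of the amyloid cohort went from 0 to 1, *Ms4a6d*, under DESeq2, with sex as a covariate and in one fit of all 40 libraries, to between 0 and 1 with a library left out, and to 1 with any library left out and sex as a covariate. In amyloid against non-amyloid Hom mice it went from 3 to 4 under DESeq2, limma-voom and sex as a covariate, and to between 2 and 5 with a library left out. In WT mice it was 3 without a filter and 3 to 4 with a library left out. It was 0 in the other comparisons throughout. The number of all genes that passed between Hom and WT mice of the amyloid cohort went from 16 to 303 under DESeq2, 251 with sex as a covariate, 612 in one fit of 40 libraries, 25 under limma-voom, 8 without a filter, 6 to 204 with a library left out and 153 to 337 with a library left out and sex as a covariate. It went from 7 to 11 under DESeq2 and to 4 to 8 with a library left out in the non-amyloid cohort, and from 0 to 38 under DESeq2, 12 with sex as a covariate and 0 to 22 with a library left out in the interaction of genotype and cohort. In amyloid against non-amyloid mice it stayed between 964 and 2070 in Hom (1395) and between 1424 and 2016 in WT mice (1689). The causes of these shifts were not tested. Leaving amyloid Hom replicate 19 out of the ratios to microglial genes and of the correlations was chosen after seeing the data.

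Estimates near 0 changed sign. *Trem2* in the non-amyloid cohort was 0.011 under limma-voom, and the interaction of genotype and cohort for *Ms4a4a* was -0.044 with sex as a covariate. With a library left out, *Ms4a4a* ranged from -0.053 to 0.352 (Hom against WT, amyloid), -0.014 to 0.251 (non-amyloid), -0.056 to 0.253 (cohorts in WT) and -0.121 to 0.222 (interaction with cohort). *Ms4a4c* ranged from -0.517 to 0.156 in the interaction with cohort, *Ms4a6b* from -0.092 to 0.054 in the non-amyloid cohort and from -0.080 to 0.138 in the interaction with sex, and *Ms4a7* from -0.343 to 0.029 in the latter. *Tmem176b* (-0.040 to 0.020) and *Trem2* (-0.083 to 0.030) did so in the non-amyloid cohort, and *Trem2* (-0.032 to 0.285) in the interaction with sex.

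No paired analysis was possible because each replicate number occurs in 1 group. At 0 to 52 counts per library, *Ms4a4b* and *Ms4a4c* could not show small changes, and antisense reads could not be separated from those of *Ms4a6c*.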
